A study of Mus musculus with 15 samples.

Results

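Immediate early genes were examined in single-nucleus RNA sequencing of the dorsal hippocampal formation (dHF). They were taken as 10 genes by name, Fos, Fosb, Junb, Arc, Npas4, Egr1, Egr3, Egr4, Nr4a1 and Nr4a3, and all 10 were among the 32285 genes of the 15 count matrices. The mice were female C57BL/6J animals with no transgene. The 6 NP mice were nulliparous virgins. The 4 ControlPP mice had been through pregnancy, birth and an undisturbed postpartum period, and the 5 StressPP mice had been through the same events with limited nesting and daily separation from their pups late in the postpartum period, until weaning. The age at dissection was not given in the sources used here. Each library held the nuclei of 4 tissue punches from 1 mouse. The questions put to the genes were in which nuclei they were detected without any imposed stimulus, how far the mice differed, and whether the groups did.

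Immediate early genes are switched on within minutes of synaptic activity or growth factor signalling, from transcription factors that are already present in the cell, so that no new protein is needed first. Calcium entry and kinase cascades act on CREB and on the serum response factor bound near their start sites. Most encode transcription factors that in turn act on later genes such as Bdnf and Nptx2, and in the hippocampus their RNA is widely used to mark neurons that took part in a recent experience. Their transcripts are short-lived, and RNA measured in nuclei sits close to the time of transcription.

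The 10 genes fall into 5 kinds. Fos, Fosb and Junb encode subunits of the AP-1 dimer, Arc encodes a synaptic protein that promotes removal of AMPA receptors, Npas4 encodes a neuron-specific factor that adjusts inhibitory synapses, Egr1, Egr3 and Egr4 encode zinc-finger factors, and Nr4a1 and Nr4a3 encode orphan nuclear receptors. In the GRCm38 annotation Fos lies at chr12:85473890-85477273 on the plus strand, with up to 4 exons in a transcript, Fosb at chr7:19302696-19310051 and Npas4 at chr19:4984355-4990316, both on the minus strand, with up to 5 and 8 exons. The promoters of these 3 are printed because granule nuclei selected on the 10 genes held the largest shares of their molecules, as described below. Each runs from 250 bases before to 50 bases after the RefSeq start in GRCm38.p6 (Fos chr12:85473640-85473939 on the plus strand, Fosb chr7:19309996-19310295 and Npas4 chr19:4989922-4990221 on the minus strand). Capitals mark TGACG, the core of the cyclic AMP response element, or CGTCA, which is the same motif on the other strand.
Fos: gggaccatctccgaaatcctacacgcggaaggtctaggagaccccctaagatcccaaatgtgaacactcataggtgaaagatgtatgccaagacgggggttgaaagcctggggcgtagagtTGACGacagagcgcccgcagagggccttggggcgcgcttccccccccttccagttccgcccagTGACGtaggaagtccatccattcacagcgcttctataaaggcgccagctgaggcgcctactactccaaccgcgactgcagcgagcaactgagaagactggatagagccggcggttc
Fosb: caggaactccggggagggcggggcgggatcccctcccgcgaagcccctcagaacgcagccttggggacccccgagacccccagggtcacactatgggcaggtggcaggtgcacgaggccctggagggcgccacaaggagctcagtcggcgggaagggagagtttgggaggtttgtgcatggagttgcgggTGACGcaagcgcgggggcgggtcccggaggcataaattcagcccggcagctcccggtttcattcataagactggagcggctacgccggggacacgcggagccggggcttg
Npas4: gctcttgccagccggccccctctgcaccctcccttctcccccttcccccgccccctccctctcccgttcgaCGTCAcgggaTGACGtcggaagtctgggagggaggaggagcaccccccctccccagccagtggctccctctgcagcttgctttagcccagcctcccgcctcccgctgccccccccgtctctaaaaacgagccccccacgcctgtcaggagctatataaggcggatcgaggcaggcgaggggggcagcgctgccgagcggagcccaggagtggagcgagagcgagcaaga
RefSeq promoters were at hand for 7 of the 10 genes, which were the 3 printed above and Junb, Egr4, Nr4a1 and Nr4a3. TGACG was found in 7 of these 7, against 20.8% of all 32851 promoters of the same length, and at least 2 copies were found in 5 of 7, against 5.01%. The full palindrome TGACGTCA was in 0 of 7 (1.79% of all promoters), the CArG box, the site of the serum response factor, in 0 of 7 (1.63%), and TATAAA in 2 of 7, Fos and Junb (13.6%). These counts describe letters in a 300-base window and not bound sites.

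The matrices held 5789 to 12738 barcodes and 40602582 to 96211264 unique molecular identifiers (UMIs, 1 per captured RNA molecule) per mouse. After removal of poor barcodes and predicted doublets 123907 nuclei remained, and 23 classes were named from marker genes. Class names are short for nuclei that resemble a cell type by those markers, for example Prox1 and Calb1 for dentate granule and Fibcd1 and Mpped1 for CA1 pyramidal nuclei, and 7.83% of nuclei stayed unnamed. The punches also held thalamic and striatal-type neurons, which lie outside the dHF. Of the 122002 barcode sequences kept, 1881 occurred in at least 2 libraries. The library of NP mouse 31 stood apart, with the fewest UMIs, the highest mitochondrial share (0.213%, against 0.0378% to 0.182% in the others) and a nuclear Malat1 share of 2.17% near the low end of 2.11% to 4.34%. The labels name 3 batches, and in them batch 1 (NP mice 27 and 31, StressPP mouse 70) holds no ControlPP mouse, whereas the methods of the study place each group in each batch. Within-batch values below follow the labels and are differences of mean log2(CPM + 0.5). Levels are given in CPM, the UMIs of a gene in a class scaled so that all UMIs of that class in that mouse sum to 1000000, and as the mean ± SD over mice. They are not scaled by transcript length and were compared only within a gene, and the 1 ratio of UMIs of a pair of genes (Arc to Egr1) only between classes.

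The genes did not share 1 pattern over the classes. Among the AP-1 genes, Junb was highest in microglia, at 35.0 ± 13.0 CPM (n = 15), followed by striatal-type neurons at 30.1 ± 12.6 (n = 8) and CA1 pyramidal nuclei at 26.9 ± 7.52 (n = 15). It stood at 10.0 ± 2.66 CPM in granule nuclei. Fos was counted sparsely in every class and reached 7.44 ± 8.10 CPM in striatal-type neurons, 2.06 ± 1.76 in CA1 and 0.621 ± 0.370 in granule nuclei, with the SD above or close to the mean in each of the first 2. The endothelial mean of 5.12 CPM rested on 13 UMIs and was 0 in 9 of 15 mice. Fosb, which can outlast Fos through a stable splice form, was at 4.203 ± 3.96 CPM in striatal-type neurons, 1.29 ± 0.712 in granule and 1.04 ± 0.924 in CA1 nuclei, and its CA1 level was the higher of the last pair in 7 of 15 mice.

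Arc was highest in CA1 pyramidal nuclei, at 23.04 ± 9.99 CPM (n = 15), and in subiculum, at 21.6 ± 14.2 (n = 13). These neighbours did not separate, with CA1 the higher in 8 of 13 mice. Striatal-type neurons (13.9 ± 11.3 CPM, n = 8), CA2 (13.1 ± 6.38), CA3 (12.6 ± 5.17) and mossy nuclei (11.9 ± 7.21) followed, and granule nuclei were far lower at 1.93 ± 0.594. Oligodendrocytes held 8.34 ± 2.34 CPM of Arc against 1.30 ± 0.808 in astrocytes, and the oligodendrocyte level was higher in 15 of 15 mice. The ratio of Arc to Egr1 UMIs was 1.14 in oligodendrocytes (660 to 577 UMIs), against 0.358 in CA1, 0.296 in granule nuclei and 0.188 in astrocytes. Npas4 was highest in striatal-type neurons (22.4 ± 14.2 CPM, n = 8), CA2 (18.2 ± 7.89), subiculum (17.0 ± 4.58) and CA1 (14.2 ± 6.26), and stood at 1.66 ± 0.727 in granule nuclei.

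The Egr genes differed among themselves. Egr1, an often used marker of recent activity, was at 63.1 ± 19.0 CPM in CA1 and 61.8 ± 25.6 in striatal-type neurons, against 20.7 ± 6.62 in CA3 and 6.53 ± 1.63 in granule nuclei. Egr4 was high in some of the same classes, with 13.2 ± 4.59 CPM in striatal-type neurons, 9.86 ± 6.04 in subiculum and 8.91 ± 4.17 in CA1. It stood at 2.03 ± 0.835 in granule nuclei. Striatal-type neurons exceeded subiculum in 4 of the 6 mice with both. Egr3 was led by the same classes as Egr1, with 23.3 ± 10.2 CPM in striatal-type neurons and 18.5 ± 4.28 in CA1 (striatal-type higher in 5 of 8 mice). But its granule level of 17.8 ± 3.97 did not separate from that of CA1 (CA1 higher in 9 of 15 mice). Granule exceeded CA3, at 14.4 ± 3.23, in 13 of 15.

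The Nr4a receptors peaked in different fields. Nr4a1 was highest in subiculum, at 129.6 ± 26.2 CPM, which exceeded CA2 (64.1 ± 29.95) in 13 of 13 mice, while CA2 exceeded CA1 (53.2 ± 14.3) in 11 of 15. Nr4a3 was highest in mossy nuclei, at 138.6 ± 36.4 CPM, and in CA3, at 110.5 ± 15.7, with mossy the higher in 12 of 13 mice. CA3 exceeded CA1, at 44.6 ± 16.5 CPM, in 15 of 15 mice. Nr4a3 stood at 8.31 ± 5.75 CPM in subiculum, where Nr4a1 was at its peak.

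**Figure D1:**
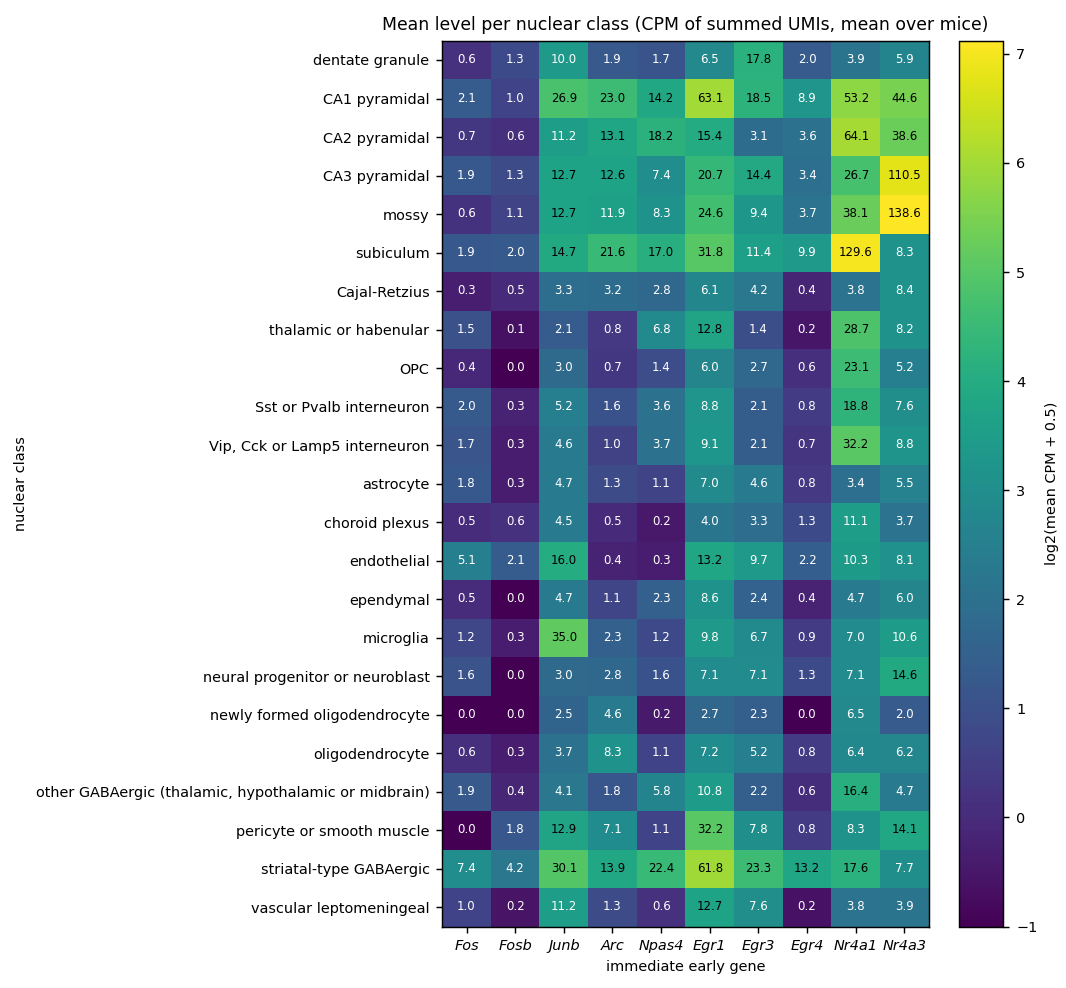
Mean level of each of the 10 genes (horizontal) by class (vertical), with the mean CPM over mice in each cell and colour on a log2(CPM + 0.5) scale. Nr4a3 peaks in mossy and CA3 nuclei (138.6 and 110.5 CPM) and Nr4a1 in subiculum (129.6 CPM). Egr1 is highest in CA1 and striatal-type neurons (63.1 and 61.8 CPM), which did not separate (CA1 higher in 5 of 8 mice).

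The mean level in CA1 was 13.7 times that in granule nuclei for Nr4a1, 11.9 times for Arc, 9.66 for Egr1, 8.57 for Npas4 and 7.62 for Nr4a3. No order is read from these ratios, since the granule levels of Nr4a1, Arc, Egr1 and Nr4a3 (3.898, 1.93, 6.53 and 5.86 CPM) lay below those in oligodendrocytes (6.43, 8.34, 7.19 and 6.23 CPM). In astrocytes these genes were at 3.42, 1.30, 6.97 and 5.54 CPM, and the astrocyte level exceeded the granule level for Egr1 alone. The ratios of Egr4 and Junb were 4.40 and 2.69, and CA1 was the higher in 15 of 15 mice for each of these 7 genes. For Fos the ratio was 3.32, with CA1 higher in 14 of 15 mice. Egr3 (1.04) and Fosb (0.811) were the exceptions. Granule nuclei, which supplied 32.1% of all UMIs, held 50.1% of all Egr3 UMIs and 44.0% of all Fosb UMIs. CA1, with 8.61% of UMIs, held 32.6% of Arc and 31.5% of Egr1, and CA3, with 8.79% of UMIs, held 46.5% of Nr4a3.

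Shares of nuclei with at least 1 UMI were compared after thinning each nucleus to 1000 UMIs, since median depth was 13466 UMIs in CA1, 16711 in CA3, 8526 in granule nuclei, 2542 in oligodendrocytes and 3408 in astrocytes. Egr1 was detected in 6.22% of CA1 nuclei (Wilson 95% interval 5.63% to 6.87%, 47.4% without thinning), in 0.591% of granule nuclei, 0.760% of oligodendrocytes and 0.841% of astrocytes. Nr4a3 was detected in 9.97% of CA3 nuclei (9.15% to 10.8%, 71.2% without thinning), in 0.507% of granule nuclei and in 0.631% of oligodendrocytes. The granule shares of Egr1 and Nr4a3 thus did not exceed those in oligodendrocytes. RNA from outside the nuclei was not estimated, so over the class as a whole these shares cannot be divided into granule RNA and background. A few granule nuclei nevertheless held many Nr4a3 UMIs, up to 49 in 1 nucleus. Egr3, at 1.67% of granule nuclei (1.53% to 1.81%), lay above its shares in oligodendrocytes (0.528%) and astrocytes (0.454%), as did Junb at 0.914% against 0.453% in oligodendrocytes. Arc was detected in 0.852% of oligodendrocytes (0.751% to 0.967%), 0.144% of astrocytes and 0.169% of granule nuclei (0.130% to 0.220%). Nuclei under 1000 UMIs were left out, being 1084 of 43527 in NP, 684 of 39196 in ControlPP and 938 of 41184 in StressPP. All intervals cover counting error only.

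The spread between mice is given beside that of counting alone. The coefficient of variation of Egr1 over the 15 mice was 30.1% in CA1, where counting alone gave 5.34%, and 45.5% against 3.00% in the whole punch. For Fos in the punch it was 59.7% against 10.6%. Nr4a3 in CA3 was steadier, at 14.2% against 4.04%. The same mice tended to be high for several genes at once. NP mouse 31 was the highest of 15 for 10 of 10 genes in CA1, 9 in CA3, 6 in granule nuclei and 3 in the punch, and it is the mouse whose library stood apart. ControlPP mouse 72 was among the top 3 mice for 8 genes in CA1, while ControlPP mouse 88 and StressPP mouse 90 were each among the bottom 3 for 7. High and low mice were thus found within the same group, and the part played by the mitochondrial share or the depth of a library was not tested.

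**Figure D2:**
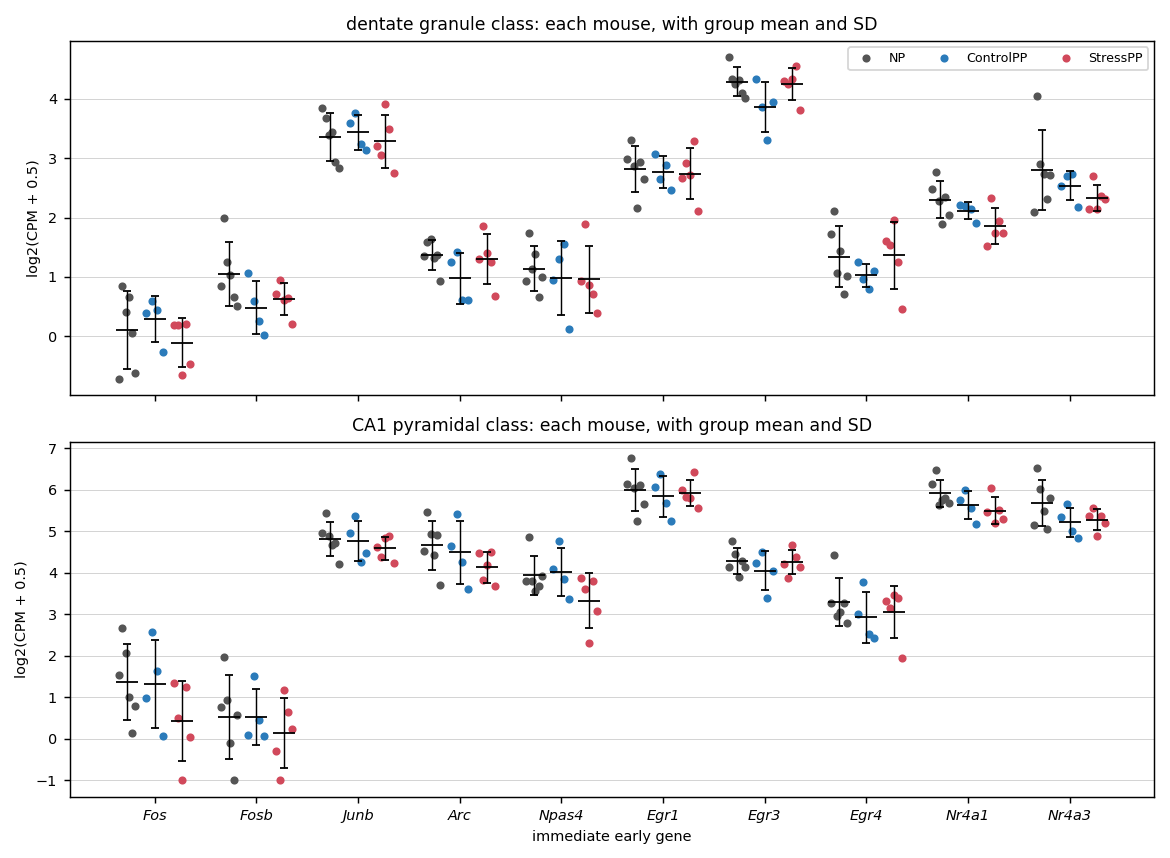
Level of each gene in granule (top) and CA1 nuclei (bottom) as log2(CPM + 0.5), 1 point per mouse, with a line at the mean of each group and bars of 1 SD. The groups overlap for every gene in both classes, and NP mouse 31 is the highest point for 10 of 10 genes in CA1.

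Groups were compared on the summed counts of each mouse with edgeR, with p-values adjusted by the Benjamini-Hochberg method over all genes tested, so that p-values measure the spread between mice. In the whole punch 0 of 10 genes passed an adjusted p of 0.05 between ControlPP and NP, where 0.00472% of all 21165 genes did (1 gene). It was 0 of 10 between StressPP and ControlPP and 0 of 10 between StressPP and NP, where 0% of genes did. At an unadjusted p under 0.05 the 3 comparisons held 842, 181 and 851 genes of which 0 were members, and DESeq2 called 20, 0 and 1 genes and 0 members. Of the 10 genes 5, 6 and 6 were on the higher side in the first-named group, and their median log2 differences were 0.02, 0.10 and 0.06, with medians over all genes of -0.02, 0.01 and -0.00. In summed punches, fewer nuclei of a type and less RNA per nucleus cannot be told apart.

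The largest punch differences did not pass the test, and their intervals included 0. Fos in the punch ranged in NP from 0.539 to 2.89 CPM with a median of 1.38. ControlPP mice 66, 72, 87 and 88 had 1.70, 3.31, 1.08 and 0.530 CPM, and StressPP mice 43, 70, 75, 77 and 90 had 1.27, 1.00, 0.777, 2.29 and 0.311. The groups overlapped over most of their range, with ControlPP mouse 72 on top and StressPP mouse 90 at the bottom. The log2 difference of Fos between StressPP and ControlPP was -0.56 (SE 0.54, 95% interval -1.72 to 0.60), with -0.40 within batch 2 and -0.31 within batch 3, and it turned to 0.017 without ControlPP mouse 72. Between ControlPP and NP the largest was Fosb, at -0.52 (SE 0.39, interval -1.34 to 0.30), running from -0.86 without ControlPP mouse 72 to -0.31 without ControlPP mouse 88 or NP mouse 31. Egr4 stood at 0.40 (SE 0.33) between StressPP and NP, within batches at 0.11 and 0.70, running from 0.27 without StressPP mouse 77 to 0.60 without StressPP mouse 90. Striatal-type neurons, the class with the highest mean Egr4 level, supplied 10.95% of UMIs in StressPP mouse 75 and 4.44% in StressPP mouse 77. These were the highest punch Egr4 mice, at 4.23 and 4.16 CPM. The share was 7.68% in NP mouse 35, 2.43% in NP mouse 73 and at most 0.0298% in the other NP mice. In the ControlPP mice it was at most 1.198%. The part of striatal-type neurons in the punch values was not tested. The others named by size were Junb at 0.30 (SE 0.27) and Arc at 0.28 (SE 0.37) between ControlPP and NP, Egr4 at 0.42 (SE 0.37) and Arc at -0.22 (SE 0.39) between StressPP and ControlPP, and Fos at -0.38 (SE 0.50) and Egr1 at 0.37 (SE 0.34) between StressPP and NP. Without ControlPP mouse 72 Junb was at 0.11 and Arc turned to -0.19 in the first comparison and to 0.25 in the second. Egr4 in the second was 0.24 without ControlPP mouse 87 and 0.67 without mouse 72, and in the third Fos was -0.12 without NP mouse 31 and -0.79 without StressPP mouse 77, and Egr1 was -0.0063 without StressPP mouse 77. Within batch 2 Egr4 between StressPP and ControlPP turned to -0.11, and within batch 3 Fos between StressPP and NP turned to 0.16. The adjusted p of the members was 0.928 or more.

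In granule nuclei 0 of 10 genes were called in any of the 3 comparisons, where 0% of 16705 genes were called, and DESeq2 called 0 genes. At an unadjusted p under 0.05 there were 327, 235 and 344 genes, and members among them were Egr3 between ControlPP and NP (log2 difference -0.36, interval -0.71 to -0.002) and Nr4a1 between StressPP and NP (-0.46, SE 0.19, interval -0.87 to -0.04). The ranges of the groups overlapped for both genes. Granule Egr3 was highest in NP mouse 27 and lowest in ControlPP mouse 87. Granule Nr4a1 was highest in NP mouse 31 and lowest in StressPP mouse 43. The part of NP mouse 31 in the Nr4a1 difference was not tested. The mean granule level of Nr4a1, 3.898 CPM, also lay below that in oligodendrocytes, 6.43 CPM. Of the 10 genes 8 were on the lower side in ControlPP against NP, 6 in StressPP against ControlPP and 8 in StressPP against NP. Their medians were -0.26, -0.05 and -0.08, and those of all genes 0.01, -0.02 and -0.00. The 2 comparisons with NP share the same 6 NP mice. Both include NP mouse 31, the highest mouse for 6 of the 10 genes in granule nuclei.

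Fosb showed the largest granule difference between ControlPP and NP. The NP mice ranged from 0.920 to 3.48 CPM with a median of 1.42, ControlPP mice 66, 72, 87 and 88 had 1.59, 1.00, 0.699 and 0.515, and StressPP mice 43, 70, 75, 77 and 90 had 1.14, 1.42, 1.04, 1.06 and 0.648. NP mouse 31 was the top mouse, and the ranges of all 3 groups overlapped. The log2 difference was -0.74 (SE 0.36, interval -1.51 to 0.03, adjusted p = 0.977 by edgeR), with -0.65 and -0.11 within batches 2 and 3, and -0.47 without NP mouse 31. For Nr4a3 the NP mice ranged from 3.78 to 16.0 CPM with a median of 6.10, and ControlPP and StressPP mice from 4.04 to 6.13 and from 3.91 to 5.96. All StressPP values lay inside the NP range. The difference between StressPP and NP was -0.59 (SE 0.29, interval -1.21 to 0.02), within batches -0.28 and -0.58, and -0.26 without NP mouse 31. Fos between StressPP and ControlPP was at -0.72 with an interval of -1.92 to 0.48, which takes in a 2-fold decrease and an increase alike, at group means of 0.461 and 0.753 CPM. The other granule differences named by size were, between ControlPP and NP, Arc at -0.41 (SE 0.28) and Egr4 at -0.37 (SE 0.33), between StressPP and ControlPP, Egr4 at 0.47 (SE 0.34) and Arc at 0.39 (SE 0.29), and between StressPP and NP, Fosb at -0.61 (SE 0.34) and Fos at -0.49 (SE 0.54). Without NP mouse 31 Egr4 between ControlPP and NP was -0.18 and Fosb between StressPP and NP -0.35. Arc between ControlPP and NP ran from -0.63 (without ControlPP mouse 72) to -0.26 (without ControlPP mouse 88), Egr4 between StressPP and ControlPP was 0.30 without StressPP mouse 75, and Fos between StressPP and NP was -0.30 to -0.25 without NP mouse 31 or 37 or StressPP mouse 75 or 90. Within batch 2 Egr4 turned to 0.15 and -0.18 in the first 2 comparisons, and Arc to -0.05 in the second.

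In CA1 pyramidal nuclei 9 genes passed the filter on low counts, Fosb being left out, and 0 of 9 were called in each comparison, where 0% of 13612 genes were called. DESeq2 also called 0. At an unadjusted p under 0.05 there were 413, 187 and 328 genes and 0 members. Of the 9 genes 6 were on the lower side in ControlPP against NP, 5 in StressPP against ControlPP and 8 in StressPP against NP, with median log2 differences of -0.07, -0.11 and -0.31 and medians over all genes of -0.00, -0.01 and -0.02. NP mouse 31, the highest mouse for 10 of 10 genes in CA1, moved these: without it 3 genes were on the lower side in ControlPP against NP (median 0.09) and 6 in StressPP against NP (median -0.18).

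Fos and Npas4 gave the largest differences in CA1. Fos ranged in NP from 0.613 to 5.87 CPM (median 1.96), was 1.48, 5.51, 2.62 and 0.557 in ControlPP mice 66, 72, 87 and 88, and 2.06, 0.927, 0, 1.87 and 0.543 in StressPP mice 43, 70, 75, 77 and 90. All 5 StressPP values were below those of the 2 highest ControlPP mice, and the groups overlapped. The log2 difference between StressPP and ControlPP was -0.95 (SE 0.62, interval -2.27 to 0.36), with -0.68 and -1.13 within batches 2 and 3, and it was -0.03 without ControlPP mouse 72. For Npas4 the NP mice ranged from 11.3 to 28.7 CPM (median 13.5), ControlPP mice had 16.7, 26.9, 13.9 and 9.91, and StressPP mice 14.3, 11.7, 4.43, 13.5 and 7.94. ControlPP mouse 72 and NP mouse 31 were the only mice above 20, and StressPP mouse 75 was the lowest, on 5 UMIs. The CA1 nuclei of mouse 75, which also gave the Fos value of 0, held 1128333 UMIs, the fewest of any mouse. The difference between StressPP and ControlPP was -0.61 (SE 0.30, interval -1.25 to 0.02, adjusted p = 1.00 by edgeR), within batches -0.64 and -0.89, and -0.28 without ControlPP mouse 72. Arc between StressPP and NP, at -0.51 (SE 0.31), was -0.83 in batch 2 and 0.27 in batch 3, and -0.33 without NP mouse 31. Fos in the same comparison was at -0.94 (SE 0.60) and Npas4 at -0.41 (SE 0.28), and without NP mouse 31 they were -0.61 and -0.18. Between ControlPP and NP the largest CA1 differences were those of Nr4a3 at -0.45 (SE 0.23, interval -0.93 to 0.03, -0.28 without NP mouse 31), Egr4 at -0.25 (SE 0.35) and Npas4 at 0.20 (SE 0.29). Egr4 turned to 0.071 without NP mouse 31 and Npas4 to -0.13 without ControlPP mouse 72. Arc between StressPP and ControlPP is given with the test of the classes against each other. Over punch, granule and CA1 nuclei, 21 of the 27 differences named by size had the same sign within batches 2 and 3 as over all mice. These batches hold all ControlPP mice and most of the others, and the differences were picked by size in the same mice. The equal signs are thus in part built in and are not independent support.

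**Figure D3:**
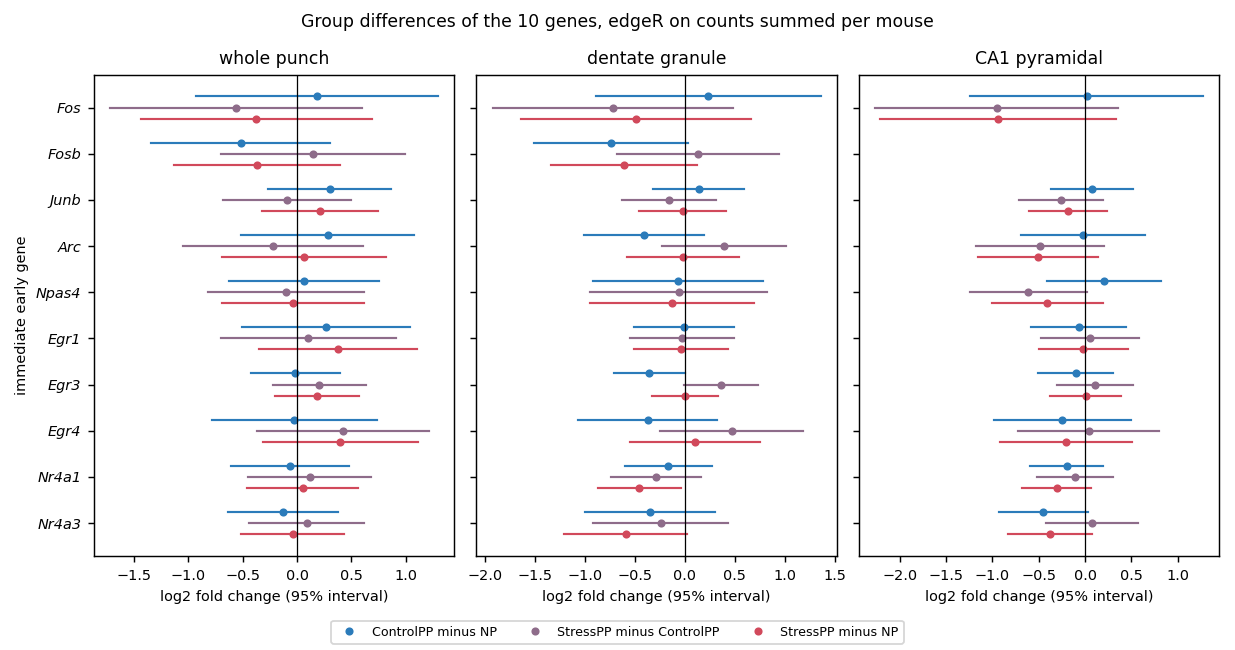
Log2 fold change of each gene between groups (horizontal) in the whole punch, granule and CA1 nuclei, as points with 95% intervals from edgeR. The intervals of Egr3 (ControlPP minus NP) and Nr4a1 (StressPP minus NP) in granule nuclei end just below 0, those of all other points include it, and the lowest point is Fos in CA1 at -0.95 between StressPP and ControlPP.

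Whether a group difference was larger in CA1 than in granule nuclei was tested with mouse as a block, and 0 of 10 genes were called in any of the 3 comparisons, where 0% of 15663 genes were called (522, 577 and 713 genes at an unadjusted p under 0.05). The only member among the latter was Arc, whose difference between StressPP and ControlPP was -0.49 in CA1 and 0.39 in granule nuclei. Without ControlPP mouse 72 the CA1 value was -0.07, and without StressPP mouse 70 the granule value was 0.20. In the joint fit of both classes the difference between the classes was -0.76 (SE 0.25, adjusted p = 1 by edgeR). Sizes of effect that the fits could find were tested on simulated counts of ControlPP against NP. A log2 change of 2 was found for 87% of changed genes in the punch, 93% in granule and 89% in CA1 nuclei, and a change of 1 for 59%, 54% and 78%. The changed genes were drawn at random from all genes tested, so these shares do not give the power for the 10 genes. Counts were also simulated independently for each gene, so no mouse was high for many genes at once, unlike NP mouse 31. Fos, for example, had a median of only 6 UMIs per mouse in CA1 and 9 in granule nuclei.

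Over all classes 69 comparisons gave 249 tests of a member, of which 0 were called and 12 had an unadjusted p under 0.05, where 5% would be 12.45. The 5% is a nominal share, and the shares of all genes at that p in punch, granule and CA1 nuclei, counted above, were lower. The 12 are thus not read as the number that all genes would give. Outside the punch the share of all genes called was 0% except in Cajal-Retzius neurons between StressPP and ControlPP, at 0.0791% of 3791 genes. The following genes in other classes were chosen after their values were seen. Nr4a3 accounted for 7 of the 12, and all 12 were lower in the first-named group. Nr4a3 was fitted in 10 classes and was on the lower side in 8 of them in ControlPP against NP and in 10 in StressPP against NP. In ControlPP against NP the 2 exceptions were astrocytes (0.01) and oligodendrocytes (0.08). The 2 comparisons share the NP mice, and the classes are nuclei of the same mice and libraries, uncorrected for free RNA. The classes are thus not repeats of each other, and the share of all genes with such equal signs was not counted.

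In thalamic or habenular nuclei Nr4a3 ranged in NP from 7.11 to 17.0 CPM with a median of 12.7. ControlPP mice 66, 72, 87 and 88 had 2.60, 4.64, 3.00 and 4.54 CPM, and StressPP mice 43, 70, 75, 77 and 90 had 5.63, 13.9, 1.57, 10.8 and 0.924. All ControlPP mice lay below all NP mice, as did 1.43% of all 14888 genes. StressPP mice 70 and 77 lay in the NP range, mouse 43 between the ranges of NP and ControlPP, and mice 75 and 90 below all ControlPP mice. The log2 difference between ControlPP and NP was -1.69 (SE 0.53, unadjusted p = 0.0056, adjusted p = 0.272 by edgeR and 0.0835 by DESeq2), from -1.84 to -1.52 when each mouse was left out, and -1.51 with batch as a term. In that comparison 0% of genes were called. The ControlPP level was below the mean in oligodendrocytes, 6.23 CPM, and astrocytes, 5.54 CPM, and the class held 120 to 892 nuclei per mouse. This class joined 2 clusters, and the part of their mix in the values was not tested.

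In GABAergic neurons of thalamic, hypothalamic or midbrain type Nr4a3 ranged in NP from 4.12 to 14.4 CPM with a median of 6.76, in ControlPP from 1.91 to 4.80, and was 2.55, 2.40, 2.02, 3.87 and 1.76 in the 5 StressPP mice. All StressPP mice lay below all NP mice, as did 0.122% of all 13145 genes. The log2 difference was -1.45 (SE 0.37, unadjusted p = 0.00093, adjusted p = 1.00 by edgeR), and the values rested on 2 to 44 UMIs per mouse. This class also joined 2 clusters, whose mix was not tested. All ControlPP and StressPP values lay below the means in oligodendrocytes and astrocytes given above, and the NP median lay just above them. In Sst or Pvalb interneurons Nr4a3 was at -1.16 in ControlPP (-1.51 to -0.84 when each mouse was left out) and -0.98 in StressPP against NP. The means there were 11.1 CPM in NP, 4.99 in ControlPP and 5.50 in StressPP, and the ranges overlapped. The ControlPP and StressPP means lay below those in oligodendrocytes and astrocytes. In CA3, where Nr4a3 was high and steady, NP mice had 122.9 ± 12.8 CPM (n = 6), ControlPP 100.8 ± 12.5 (n = 4) and StressPP 103.4 ± 12.4 (n = 5), with log2 differences from NP of -0.20 (SE 0.12) and -0.17 (SE 0.11) that did not pass the test.

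Arc in subiculum ranged in NP from 20.4 to 60.5 CPM (median 24.3), was 11.7, 36.9, 10.3 and 13.2 in the ControlPP mice, and 9.55, 14.4 and 8.76 in StressPP mice 70, 77 and 90, the 3 with enough nuclei. These 3 lay below all NP mice, as did 0.88% of all 7387 genes. The log2 difference was -1.35 (unadjusted p = 0.0036, adjusted p = 1.00 by edgeR), from -1.53 to -1.07 when each mouse was left out, on 13 to 128 nuclei and 5 to 29 UMIs per mouse.

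The genes were then counted together in single nuclei, each thinned to 2000 UMIs. Of 31638 granule nuclei 91.3% had no UMI of any of the 10 genes, 2558 had UMIs of 1 gene, 142 of 2 and 14 of 3. Beyond these, 25 granule nuclei (0.0790%) held at least 4 of the 10, among them 4 nuclei with 7 genes and 1 with 10. In CA1 63.6% of 5698 nuclei had none and 1537 had 1, yet the highest number was 4, reached by 23 nuclei. The share with at least 4 was thus higher in CA1, at 0.404%, than in granule nuclei. CA3 had 69.8% with none and 9 nuclei with at least 4 (0.191%), striatal-type neurons had 12 of 1839 (0.653%), and oligodendrocytes had 1 such nucleus. The top number of 10 was reached in the class with the most nuclei.

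**Figure D4:**
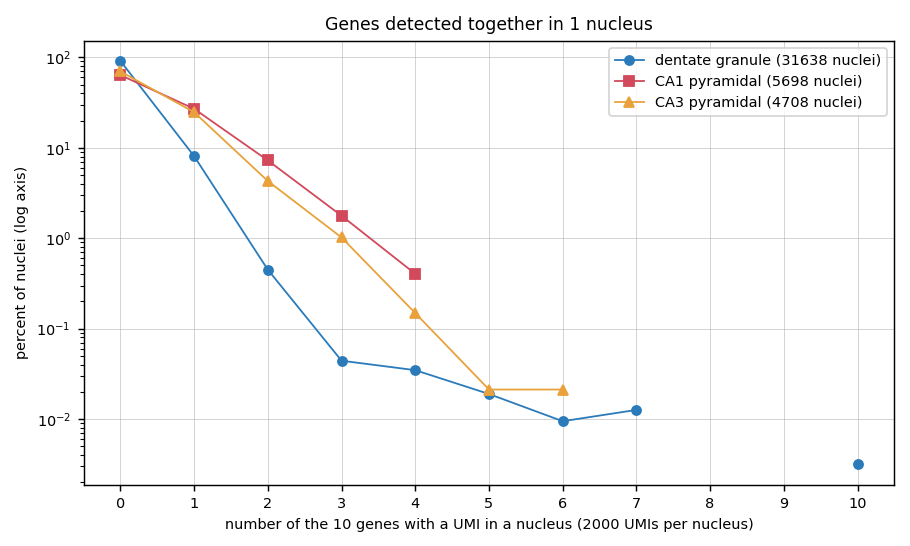
Share of nuclei, on a log axis, by the number of the 10 genes with at least 1 UMI after thinning to 2000 UMIs, for granule, CA1 and CA3 nuclei. Granule nuclei fall to 14 nuclei at 3 genes and then run on to 10, whereas CA1 nuclei end at 4.

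The 25 granule nuclei came from 11 mice, with 9 in NP (of 10064 granule nuclei), 13 in ControlPP (of 11528) and 3 in StressPP (of 10046). ControlPP mice 72 and 87 held 6 each, NP mouse 35 held 4 and NP mouse 63 held 2, and NP mouse 27, ControlPP mouse 88 and StressPP mice 77 and 90 held 0. The share per mouse was 0.0814% ± 0.0621 in NP, 0.119% ± 0.115 in ControlPP and 0.0356% ± 0.0379 in StressPP, and no test was run. Their median depth was 8826 UMIs against 8591 in all granule nuclei.

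These nuclei, selected on the 10 genes, held 43.6% of all granule Fos UMIs at 2000 UMIs per nucleus (17 of 39), 27.9% of Npas4 (31 of 111) and 20.8% of Fosb (15 of 72). Arc (14.7%) and Nr4a3 (10.9%) followed. They held only 3.40% of Junb and 2.61% of Egr3 UMIs, so that most UMIs of these genes lay in the other granule nuclei. Without thinning the top 3 genes were Fos (34.6%), Fosb (22.99%) and Npas4 (21.6%). The printed promoters are those of these 3 genes. Since the nuclei were selected for holding the 10 genes, a large share of a sparsely counted gene is in part built in. At 2000 UMIs per nucleus Egr3 was detected in 17 of the 25 nuclei and Fos in 12.

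In granule nuclei pooled over mice, nuclei with Arc more often held the other genes. Of the 95 granule nuclei with Arc, 9.47% had Npas4 against 0.266% of those without, 7.37% had Fos against 0.0761%, and 16.8% had Egr3 against 3.21%. These rest on 9, 7 and 16 nuclei, and among the 9 mice that could be compared the share was higher with Arc in 7 for Npas4, 4 for Fos and 6 for Egr3. Nuclei of 1 mouse are not replicates. In CA1 the 239 nuclei with Arc had Egr1 in 19.2% against 11.2% (higher in 10 of 14 mice), but Nr4a3 in 6.69% against 8.04%. In oligodendrocytes the 323 nuclei with Arc had Egr1 in 1.24% against 1.30% of the others (higher in 3 of 15 mice). Egr3 was also lower with Arc, at 0.619% against 1.04%. The other genes were higher with Arc but on at most 6 nuclei each. Nr4a3, on those 6, was at 1.86% against 1.26%, and Npas4, on 3, at 0.929% against 0.226%.

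Genes that played no part in the selection were then read in the same 25 nuclei, with exact Poisson 95% intervals for counting error and no test. The intervals do not cover the spread between nuclei or mice. Most of the 11 mice held only 1 such nucleus, so the numbers of mice given rest largely on single nuclei. Counts took the genes with at least 5 CPM in the other granule nuclei, and of all 10650 such genes outside the 10, 7.27% were more than 2-fold higher in the 25 nuclei, with a median ratio of 0.815. Of 11 other rapidly induced genes 9 were more than 2-fold higher in the 25 nuclei, with a median ratio of 11.5. Nr4a2, the third Nr4a receptor, was at 436 CPM (353 to 533) against 8.84 and higher in 9 of 11 mice, and Btg2, an antiproliferative gene, at 377 (300 to 468) against 19.2 and in 11 of 11. Dusp6, a phosphatase that acts on ERK, was at 90.9 CPM against 0.856, under the 5 CPM and so not among the 11. Ier5l was at 0 UMIs.

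Of 12 later activity-induced genes 12 were more than 2-fold higher, with a median ratio of 5.13, against the same 7.27% of all genes. Homer1, a postsynaptic scaffold with a short activity-induced form, was at 3140 CPM (2910 to 3383) against 87.8, higher in 11 of 11 mice. Bdnf, a neurotrophin, was at 486 (398 to 588) against 86.8, and Nptx2, a secreted pentraxin that gathers AMPA receptors, at 145 against 4.32, which is under the 5 CPM and not among the 12. The genes of upstream signalling did not stand apart, with 0 of 13 over 2-fold, a median ratio of 1.09 and a summed level of 3263 CPM against 3159, for example Camk2a at 1595 against 1434. Of 5 heat shock genes 3 were more than 2-fold higher, with a median ratio of 2.48.

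Markers of cell types were read in the same nuclei. Prox1, which defines granule neurons, was at 659 CPM (556 to 775) against 324 and was detected in 21 of the 25. Calb1 was also higher, at 159 against 94.0, while the other 6 of the 8 granule markers were lower, for example Stxbp6 at 499.8 against 1096, and the 8 summed to 1927 CPM against 2370. Mossy markers summed to 136 CPM against 148, with 5 of 7 at 0, and CA3 markers to 359 against 436, with 4 of 9 at 0. With at least 3 genes required (39 nuclei) 9 of 10 rapid and 10 of 12 later genes were over 2-fold, against 4.96% of all genes, and with at least 5 (14 nuclei) 9 of 11 and 8 of 12, against 9.21%. In CA1 the 23 nuclei with at least 4 genes showed 3 of 9 rapid genes over 2-fold with a median ratio of 1.33 and 2 of 14 later genes, against 3.63% of all genes.

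**Figure D5:**
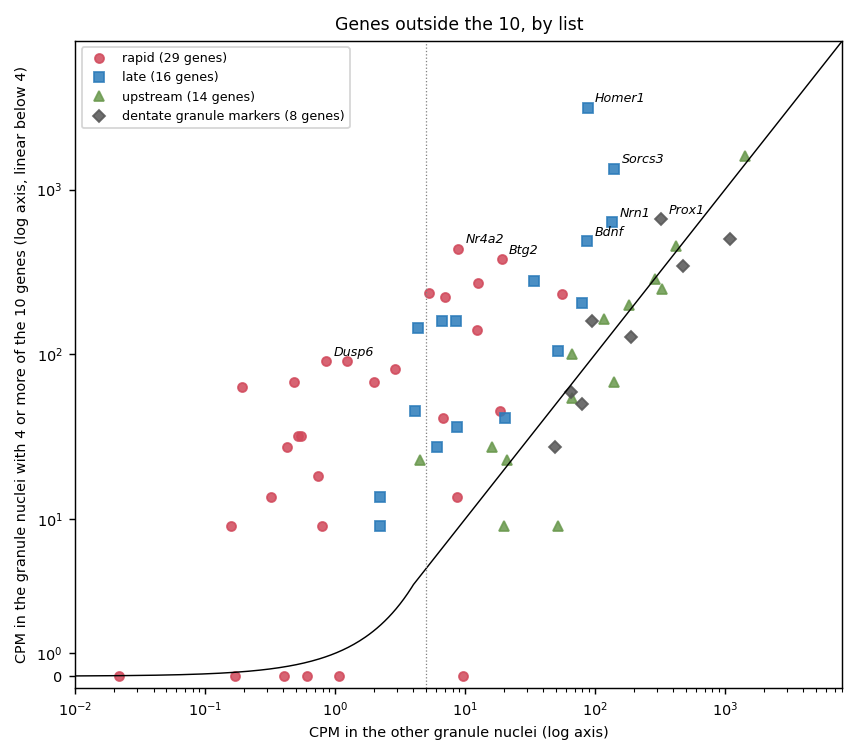
Level of each gene of 4 lists in the 25 granule nuclei with at least 4 of the 10 genes (vertical, CPM, log axis that is linear below 4) against its level in the other granule nuclei (horizontal, CPM, log axis). The line marks equal levels and the dotted line 5 CPM. Homer1 lies at 3140 against 87.8 CPM, and genes of upstream signalling lie near the line.

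The wider activity lists gave no call between groups. Of 29 other rapid genes, 16 later genes, 14 upstream genes and 10 heat shock genes, 0 were called in 69 comparisons each. In CA1 the rapid list had median log2 differences over 19 genes of -0.30 in ControlPP against NP, -0.11 in StressPP against ControlPP and -0.46 in StressPP against NP. In granule nuclei, over 25 genes, the medians were -0.17, 0.13 and -0.01. The heat shock list, over 9 genes in each class, had medians of -0.27, 0.18 and -0.07 in CA1 and of -0.29, 0.36 and -0.03 in granule nuclei, in the same order, and its part in the other lists was not tested. The rapid list was not refitted without NP mouse 31. The 2 genes of this list with the largest CA1 differences between StressPP and NP were Sik1, a kinase induced by cyclic AMP, at -1.41 (SE 0.58) and Btg2 at -1.03 (SE 0.48). Their CA1 levels were low. Sik1 was at 1.95 ± 1.15 CPM in NP and 0.668 ± 0.268 in StressPP, and Btg2 at 2.45 ± 1.14 and 1.53 ± 1.25. In the punch Sik1 was at -0.78 (SE 0.19, unadjusted p = 0.0011, adjusted p = 0.818 by edgeR) and Nptx2 at -0.82 (SE 0.26) in ControlPP against NP. Penk, which encodes enkephalin and marks striatal-type neurons, was at 1.87 (SE 0.73) in StressPP against ControlPP in the punch, at 0.69 (SE 0.27) in CA1 and at 0.75 (SE 0.36) in granule nuclei. Penk in the punch averaged 14.4 ± 16.9 CPM over the 5 StressPP mice and 3.70 ± 0.598 over the 4 ControlPP mice. Striatal-type neurons made up 7.25% of nuclei in StressPP mouse 75 and 3.11% in StressPP mouse 77, against 0% to 0.875% in the ControlPP mice and 5.12% in NP mouse 35, and their part in the Penk values was not tested.

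The log2 level of each of the 10 genes was centred and divided by its SD over the 15 mice. The mean of these scaled levels was also compared with each of 16695 other genes in granule nuclei. The most alike were Sphk2 (Pearson r = 0.886), Yjefn3 (0.881), Ehbp1l1 (0.876), Trim27 (0.872), Stambp (0.871), Kpna6 (0.870), Mtf1 (0.868), Peli3 (0.868), Ubtf (0.868) and Vps18 (0.865). These points share library, depth and batch with the members. Among the 100 most alike were 0 of 25 rapid, 0 of 16 later, 0 of 14 upstream and 0 of 9 heat shock genes, lists that are short beside the 16695 genes compared.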

How the data were processed

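Dorsal hippocampal punches of 15 mice were profiled by droplet single-nucleus RNA sequencing with a 3′ kit (10x Chromium v3.1), 1 library per mouse. The authors aligned reads with Cell Ranger (7.1.0 in the processing notes, 7.0.0 in the file headers) and deposited unnormalized UMI counts per gene and barcode, filtered for cell-containing barcodes. The mm10 and GRCm39 builds are both listed in the notes. Correction for free RNA, doublet removal and normalization by the authors came after these files and are not in them.

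From the counts, a barcode was dropped below 200 detected genes or above 5% of UMIs from mitochondrial genes, and then the barcodes with the highest simulated-doublet scores, at 0.8% per 1000 barcodes. Nuclei were clustered with scanpy 1.11.5 (2000 variable genes, 30 components, 15 neighbours, Leiden resolution 1) without the 10 genes or the activity lists, and marker genes named the clusters that held 50 nuclei or more. Counts were summed per mouse and class for mice with at least 10 nuclei, in classes with at least 3 mice per group, and tested with edgeR 4.0.16 (R 4.3.3) by the quasi-likelihood test with TMM factors and a filter on low counts, all 3 groups in 1 fit, and Benjamini-Hochberg adjustment over all genes. The steps were tested on simulated data with 200 changed genes. Alternatives were DESeq2 1.42.0, batch as a term, other filters, thinned nuclei and leaving out each mouse. Totals ran from 40602582 to 96211264 UMIs per library.

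The 10 genes and the activity lists were chosen with earlier results of these data known. The cluster naming rule, the limit of 4 genes per nucleus and the 5 CPM floor in the other nuclei were set after the data were seen, as were total-count scaling and the alternatives for other classes. All 10 genes are named with levels, and fold changes are given for the 3 with the largest absolute change per main comparison and for any called. From each list the 2 genes with the largest change were eligible by name. The most alike genes are the 10 with the highest Pearson correlation to the mean of the 10 genes, each as log2 CPM centred and divided by its SD over mice. Promoters are from RefSeq for GRCm38.p6, with 7 of the 10 genes matched.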

Additional observations from a re-analysis of the deposited data

Results flagged for a closer look

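Within groups of 4 to 6 mice, a mouse was picked out where its gap to the nearest other mouse was large for the range of its group (Dixon's criterion at the 95% level). Of 90 sets of values, 4 were picked out, and chance alone picks about 1 in 20. NP mouse 31, whose library stood apart in depth and mitochondrial share, gave 3 of the 4. Its granule Nr4a3 was at 16.0 CPM, where the next NP mouse had 7.01. In CA1 its Npas4 was at 28.7 CPM (next 14.8) and its Egr4 at 21.1 CPM (next 9.19). StressPP mouse 70 had 3.19 CPM of Npas4 in granule nuclei, where the next StressPP mouse had 1.41.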

How the results depend on the processing

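The count of 0 members called held in each of 204 alternatives in the punch, granule and CA1 comparisons, and the smallest adjusted p of a named member over 765 alternatives was 0.0835 (Nr4a3 in thalamic or habenular nuclei, DESeq2). Log2 differences kept their direction in 547 of 553 fits that left out 1 mouse and in 211 of 212 others. These differences were chosen by size or by low p in the same mice, so that a kept direction is in part built in. Fos in the punch, -0.56 with all mice, was the largest of those that turned. In the punch, leaving out each mouse in turn moved Arc in ControlPP against NP from -0.19 (without ControlPP mouse 72) to 0.50, Fos in StressPP against ControlPP from -0.97 to 0.017 (without mouse 72), Arc in the same comparison from -0.54 to 0.25 (without mouse 72), and Egr1 in StressPP against NP from -0.0063 (without StressPP mouse 77) to 0.54. In CA1, for ControlPP against NP, Egr4 moved from -0.65 to 0.071 (without NP mouse 31) and Npas4 from -0.13 (without ControlPP mouse 72) to 0.42. Arc in the punch for StressPP against ControlPP was 0.036 with nuclei thinned to 1000 UMIs. The cause was not tested. At 1000 UMIs the mean share of nuclei with at least 3 of the 10 genes was 0.0630% in granule and 0.381% in CA1 nuclei, and with at least 2 it was 0.227% and 3.15%, since fewer genes were required. Shares at 2000 UMIs moved for 19 of 20 values, since more molecules were kept. No paired analysis was possible because the replicate numbers follow the order of the records and name no shared animal, litter or day. Low counts limit Fos and Fosb most.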
